A study of Mus musculus with 9 samples.

Results

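Ptgds, Ptgis, Ptgs1, Ptgs2, Tbxas1, Ptgfr, Ptger3 and Ptgir encode the enzymes that make prostaglandins and thromboxane and the receptors that bind them. They were followed in mouse ventricles by taking every probe set whose only gene symbol in the platform annotation was 1 of these 8 genes. This gave 12 of the 12488 probe sets on the array, from 7 genes. Ptgs1 was the symbol of 0 probe sets in the annotation used and is not analysed here. Ptgds was chosen on its signal in the IGF1R-dnPI3K group of these arrays, which was already known, so its values in that group are given as a description, without a test.

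The arrays held total RNA from both ventricles of 9 female mice aged 3 months. All carried a transgene that overexpresses the insulin-like growth factor 1 receptor (IGF1R), and 3 groups of 3 were compared. IGF1R-caPI3K mice carried in addition a constitutively active phosphoinositide 3-kinase (PI3K, p110), IGF1R-dnPI3K mice a dominant negative PI3K, and IGF1R mice the receptor transgene alone. The sources used here do not name the promoter that drives each transgene. Mice with a PI3K transgene alone and non-transgenic littermates are named in the labels but not analysed here, and no normal heart served as a baseline. Because the RNA came from whole ventricles, a change in the number of cells of a type and a change in RNA per cell cannot be told apart.

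Prostanoids are short-lived lipid signals made from arachidonic acid, which phospholipases A2 release from membranes. The cyclooxygenases Ptgs1 and Ptgs2 turn it into prostaglandin H2, and a terminal synthase then sets which signal is made. Ptgds makes prostaglandin D2, Ptgis makes prostacyclin, which relaxes vessels and restrains platelets, and Tbxas1 makes thromboxane A2, which does the opposite. Ptgds is also a secreted lipocalin that carries small hydrophobic molecules, and heart is among the tissues known to make it.

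The promoter of Ptgds is shown because Ptgds had the widest spread over the arrays among the listed genes that passed the signal filter given below. The sequence is from RefSeq on GRCm38.p6, chr2:25469700-25469999, minus strand, and runs from 250 bases before the start of the gene through its first 50 bases. Capitals mark every match to the motifs searched.
Ptgds: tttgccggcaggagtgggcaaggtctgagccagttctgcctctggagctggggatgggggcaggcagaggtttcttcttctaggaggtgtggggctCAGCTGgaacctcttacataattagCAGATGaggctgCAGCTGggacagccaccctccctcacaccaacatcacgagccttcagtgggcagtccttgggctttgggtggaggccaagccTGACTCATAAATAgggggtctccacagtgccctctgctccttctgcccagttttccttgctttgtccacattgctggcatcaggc
Of 7 motifs searched on both strands, 3 had a match. The E-box CANNTG occurred 3 times, at 154, 129 and 117 bases before the start, and 72.3% of the 32851 promoters in the table hold it. An AP-1 site, TGANTCA, began 35 bases before the start (held by 7.81% of promoters), and a TATA-like ATAAATA began 29 bases before it (5.60%). These matches shared 1 base. No match was found for TATAAA (13.6% of promoters), the FoxO site GTAAACA (3.65%), the cAMP response element TGACGTCA (1.79%) or CCAAT (37.4%). Promoters of 7 of the 8 listed genes were in the table, Ptgis being the exception. Of these, 2 held TGANTCA (Ptgds and Tbxas1), and 0 held GTAAACA. A match describes letters in this window and does not show that a factor binds there.

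Signal is the deposited intensity of a probe set, on a linear scale. Every array had been scaled to the same trimmed mean of about 500.3. The 3'/5' signal ratio of the spiked-in CreX control was 1.74 to 1.89 on IGF1R-caPI3K arrays and 1.79 to 1.83 on IGF1R-dnPI3K arrays, against 1.05 to 1.26 on IGF1R arrays. The highest signal of any probe set on an array was 28463 to 29544, 28680 to 51164 and 22475 to 23040 in the same groups. Both measures set every IGF1R array apart from all arrays of the PI3K groups. This difference between arrays and the genotype therefore cannot be told apart in any comparison with IGF1R. IGF1R-dnPI3K replicate 3 stood apart: its mean correlation with the remaining arrays was 0.954, against 0.969 to 0.973 for the other 8 arrays, and its 3'/5' ratio for Pcx was 3.25, against 1.40 to 2.11. The ventricular marker Myl2 had a signal of 18627 to 31752 and the atrial marker Myl7 one of 23.2 to 55.0. The sample titles carry mouse numbers that fall into 3 series by their first digits. IGF1R-dnPI3K replicates 2 and 3 share a series that holds no other mouse, so this series and the IGF1R-dnPI3K genotype cannot be told apart in them.

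Differences were fitted with limma on log2 signal, with values under a floor of 32.4 raised to it, over the 7898 probe sets whose signal exceeded an array's 40th percentile (98.6 to 119) on 3 or more arrays. A probe set was called at a Benjamini-Hochberg adjusted p under 0.05 over all of these. By this rule 0.215% of probe sets were called between IGF1R-caPI3K and IGF1R, 13.5% between IGF1R-dnPI3K and IGF1R, and 1.24% between IGF1R-caPI3K and IGF1R-dnPI3K. Of the 12 probe sets of the listed genes, 6 passed the signal filter: 3 of Ptgds and 1 each of Ptgis, Tbxas1 and Ptgfr. The 6 that did not were 2 of Ptger3 and 1 each of Ptgs2, Ptgir, Tbxas1 and Ptgfr.

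By group means, Ptgds was highest in IGF1R-dnPI3K hearts on all 3 of its probe sets, next in IGF1R-caPI3K hearts and lowest in IGF1R hearts. Between IGF1R-caPI3K and IGF1R, the neighbours in this order, the means differed by less than the test could call. On 92545_f_at their order turned when 1 mouse was left out, with a log2 difference between IGF1R-caPI3K and IGF1R of -0.08 without IGF1R-caPI3K replicate 1 and -0.01 without IGF1R replicate 2. The IGF1R-dnPI3K hearts differed widely among themselves. Of the 3 mice, 1 lay close to the IGF1R-caPI3K hearts and the others far above every array of the other groups.

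On Ptgds probe set 102105_f_at the signal was 3068, 2165 and 2103 in IGF1R-caPI3K replicates 1, 2 and 3. It was 3295, 7875 and 13380 in IGF1R-dnPI3K replicates 1, 2 and 3, against 1888, 1180 and 1626 in IGF1R replicates 1, 2 and 3. The groups did not overlap in any of the 3 comparisons, although IGF1R-caPI3K replicate 1 and IGF1R-dnPI3K replicate 1 lay close together. Means were 2445 ± 540 in IGF1R-caPI3K, 8183 ± 5049 in IGF1R-dnPI3K and 1565 ± 358 in IGF1R hearts (SD, n = 3 each). The IGF1R-dnPI3K mean was 5.23 times the IGF1R mean. Taken array by array, the IGF1R-dnPI3K hearts stood at 2.11, 5.03 and 8.55 times that mean.

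Ptgds probe set 92545_f_at gave 2399, 1284 and 1956 in IGF1R-caPI3K hearts, 2692, 5183 and 8004 in IGF1R-dnPI3K hearts, and 1800, 1389 and 1874 in IGF1R hearts. On this probe set IGF1R-dnPI3K arrays again lay above all others, while IGF1R-caPI3K and IGF1R arrays overlapped. The IGF1R-dnPI3K mean, 5293 ± 2658, was 3.14 times the IGF1R mean of 1688 ± 261, and the IGF1R-caPI3K mean of 1880 ± 562 was 1.11 times it (SD, n = 3 each).

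Ptgds probe set 92546_r_at gave 2794, 1450 and 2243 in IGF1R-caPI3K hearts, 3738, 7033 and 16762 in IGF1R-dnPI3K hearts, and 1761, 1143 and 2003 in IGF1R hearts. Its pattern of overlap was that of 92545_f_at. The IGF1R-dnPI3K mean of 9178 ± 6771 was 5.61 times the IGF1R mean of 1636 ± 444, and the IGF1R-caPI3K mean of 2162 ± 676 was 1.32 times it (SD, n = 3 each). Across the 9 arrays the log2 signals of the Ptgds probe sets correlated at 0.961, 0.975 and 0.989 pair by pair. They read the same RNA samples, and 92545_f_at and 92546_r_at were designed on the same sequence record, so they are not separate measurements of the mice. The letters in their names mark probe sets that may share targets with other transcripts, which could not be checked here.

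**Figure D1:**
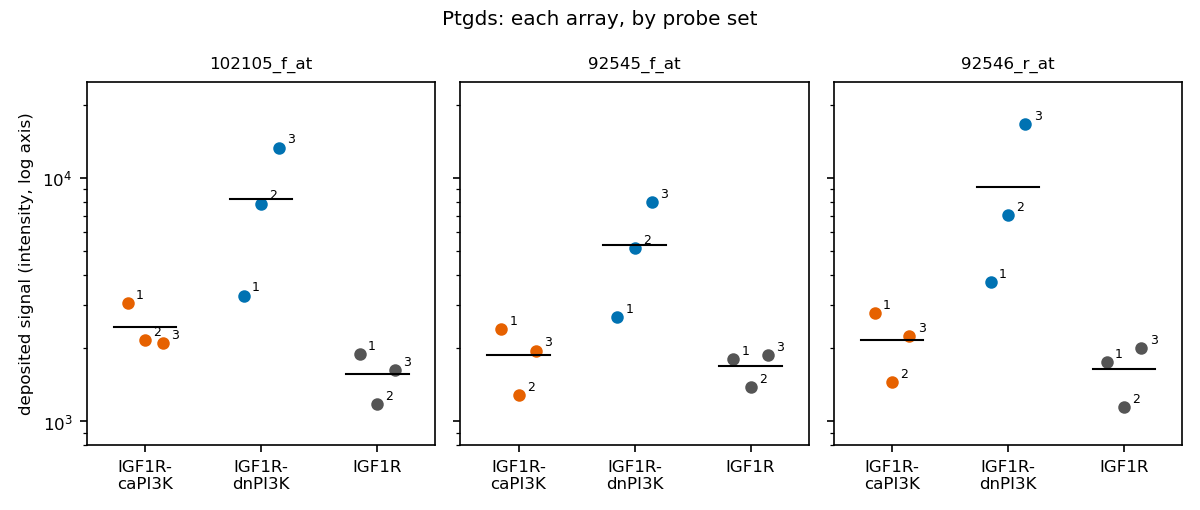
Signal of Ptgds (intensity, log axis) on every array, in a panel for each probe set. Points are arrays numbered by replicate and black lines are means of 3. IGF1R-dnPI3K replicate 1 sits at 2692 to 3738, near the highest IGF1R-caPI3K array, while replicates 2 and 3 sit between 5183 and 16762.

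In the fit, the log2 difference between IGF1R-dnPI3K and IGF1R hearts was 2.19 ± 0.40 (SE) for 102105_f_at, 1.52 ± 0.34 for 92545_f_at and 2.26 ± 0.45 for 92546_r_at. Between IGF1R-caPI3K and IGF1R-dnPI3K hearts it was -1.55 ± 0.40, -1.40 ± 0.34 and -1.87 ± 0.45 for the same probe sets. These differences describe the pattern for which Ptgds was chosen, and their SEs are not a test of it. Each SE uses a spread shared by the groups, although the IGF1R-dnPI3K arrays differed most among themselves. Between IGF1R-caPI3K and IGF1R hearts the difference was 0.65 ± 0.40 (95% interval -0.24 to 1.54; limma adjusted p = 0.421) for 102105_f_at. It was 0.12 ± 0.34 (-0.64 to 0.88; limma adjusted p = 0.881) for 92545_f_at and 0.39 ± 0.45 (-0.61 to 1.39; limma adjusted p = 0.680) for 92546_r_at. None of the Ptgds probe sets was called between IGF1R-caPI3K and IGF1R.

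The size of the Ptgds difference rested on which IGF1R-dnPI3K mice were used. Without IGF1R-dnPI3K replicate 1, the log2 difference from IGF1R for 102105_f_at was 2.74, without replicate 2 it was 2.11, and without replicate 3, the array that stood apart, it was 1.73. Within the series of mouse numbers that holds 1 mouse of each group, the 102105_f_at signal was 3068 in IGF1R-caPI3K, 3295 in IGF1R-dnPI3K and 1626 in IGF1R. There the IGF1R-dnPI3K array was 2.03 times the IGF1R array, and on 92545_f_at and 92546_r_at it was 1.44 and 1.87 times it. The IGF1R-caPI3K array of that series was 0.931, 0.891 and 0.747 times the IGF1R-dnPI3K array on 102105_f_at, 92545_f_at and 92546_r_at. A fit with the series as a block, which takes the IGF1R-dnPI3K effect from replicate 1 alone, gave a log2 difference of 0.89 between IGF1R-dnPI3K and IGF1R and -0.24 between IGF1R-caPI3K and IGF1R-dnPI3K for 102105_f_at. In the series that holds 2 IGF1R-caPI3K and 2 IGF1R mice, the IGF1R-caPI3K mean was 1.39, 1.02 and 1.27 times the IGF1R mean on 102105_f_at, 92545_f_at and 92546_r_at.

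Markers of several cell types moved in the same arrays. Sums and counts of markers use the brightest probe set of each gene. Of all probe sets tested, 13.5% were called between IGF1R-dnPI3K and IGF1R. Summed over 10 fibroblast markers, the signal was 35006 to 39637 in IGF1R-caPI3K, 24570 to 28265 in IGF1R-dnPI3K and 32425 to 35547 in IGF1R hearts. Of the 10, 4 fell in IGF1R-dnPI3K against IGF1R (Col1a1, Col3a1, Lum and Postn), and the median log2 difference of the 10 was -0.54. In each of the 4, replicate 1 was the highest IGF1R-dnPI3K array. Postn was 1988, 601 and 552 in IGF1R-dnPI3K replicates 1, 2 and 3, and 2529 to 3417 in IGF1R hearts. Col1a1 94305_at was 2435, 738 and 1062 against 2374 to 3807, with overlap. Col1a2 differed by probe set. It was not called on the brightest, 161156_r_at (log2 difference 0.14 ± 0.14, limma adjusted p = 0.518), and was lower on 101130_at (-0.68 ± 0.15, limma adjusted p = 0.0189). The 9 macrophage markers summed to 8901 to 9354 in IGF1R-caPI3K, 5543 to 7727 in IGF1R-dnPI3K and 7596 to 8815 in IGF1R hearts, and 3 of the 8 tested fell in IGF1R-dnPI3K (Csf1r, Lyz2 and Mrc1). Against IGF1R, C1qc went the other way, with overlap, and was not called (log2 difference 0.38 ± 0.14, limma adjusted p = 0.0959). The median log2 difference of the 8 was -0.51. The 7 cardiomyocyte markers summed to 127113 to 132621 in IGF1R-caPI3K, 140762 to 171898 in IGF1R-dnPI3K and 122836 to 132652 in IGF1R hearts. Of these, Myh6 and Myl2 were higher and Ryr2 lower in IGF1R-dnPI3K than in IGF1R hearts by the same rule. On IGF1R arrays Myh6 was 20274 to 22061, close to the highest signal of any probe set there, 22475 to 23040. Whether an upper limit of the signal affects the brightest markers was not tested. The adjusted p was under the threshold for 1 of 4 atrial markers tested in the same comparison, Nppa, which had 5430 ± 1227 in IGF1R-dnPI3K against 3077 ± 320 in IGF1R hearts (SD, n = 3 each). Myl4 went the other way on 100828_at, without overlap, and was not called (log2 difference -0.69 ± 0.21, limma adjusted p = 0.0509). The median log2 difference of the atrial markers tested was -0.46. Summed over 6 atrial markers, the signal was 4380 to 5096 in IGF1R-caPI3K, 4786 to 6967 in IGF1R-dnPI3K and 3821 to 4469 in IGF1R hearts. Nppa, at 2832 to 6307 over the arrays, made up most of each sum, so the sum mainly follows that gene.

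Smooth muscle markers (7) summed to 4785 to 4994 in IGF1R-caPI3K, 5619 to 6317 in IGF1R-dnPI3K and 4715 to 4988 in IGF1R hearts, and 0 of 6 tested were called there by limma (2 at an unadjusted p under 0.05). Mesothelial markers (7), as a source of cells from the heart's surface, summed to 711 to 999 in IGF1R-caPI3K, 979 to 1019 in IGF1R-dnPI3K and 995 to 1082 in IGF1R hearts. In IGF1R-dnPI3K against IGF1R limma called 0 of 4, with 0 at an unadjusted p under 0.05 and a median log2 difference of -0.28. Cdh1, at 355.5 to 622.3, was much of each sum. Upk3b was 131.3, 94.1 and 120.1 in IGF1R-caPI3K, 193.5, 266.5 and 326.1 in IGF1R-dnPI3K and 197.9, 97.6 and 233.0 in IGF1R hearts. Between IGF1R-caPI3K and IGF1R-dnPI3K it did not overlap and was not called (log2 difference -1.17 ± 0.33, limma adjusted p = 0.133). Of these markers, Msln and Krt19 were at or below the floor on all 9 arrays. The 3 red blood cell markers summed to 36516 in IGF1R-dnPI3K replicate 3, the array with the highest Ptgds, and to between 16932 and 21202 on the other 8 arrays, with 0 of 3 called by limma and 1 at an unadjusted p under 0.05. Of 9 endothelial markers tested, 1 was higher (Vwf) and 2 were lower (Kdr and Pecam1) in IGF1R-dnPI3K than in IGF1R hearts, at sums of 9558 to 10961 in IGF1R-caPI3K, 9826 to 12524 in IGF1R-dnPI3K and 11067 to 12460 in IGF1R hearts. Of 4 adipocyte markers tested, 1 was higher, Lipe, which releases fatty acids from stored fat, at 827 ± 299 in IGF1R-dnPI3K and 329 ± 34.5 in IGF1R hearts (SD, n = 3 each). Fabp4 went the other way, without overlap, and was not called (log2 difference -0.80 ± 0.29, limma adjusted p = 0.0825). The 6 adipocyte markers summed to 1063 to 1387 in IGF1R-caPI3K, 1946 to 2130 in IGF1R-dnPI3K and 1760 to 2039 in IGF1R hearts. The 5 platelet markers summed to 224 to 303, 216 to 350 and 215 to 315 in IGF1R-caPI3K, IGF1R-dnPI3K and IGF1R hearts, and 1 of them passed the filter. Between IGF1R-caPI3K and IGF1R-dnPI3K, 3 fibroblast markers were higher (Col1a1, Lum and Postn), as was Col1a2 on 101130_at (log2 difference 1.10 ± 0.15, limma adjusted p = 0.00936). Between IGF1R-caPI3K and IGF1R the cardiomyocyte marker Ryr2 was lower. On the other marker lists limma called 0, with 0 to 7 of a list at an unadjusted p under 0.05. The highest counts were 7 of 8 macrophage markers between IGF1R-caPI3K and IGF1R-dnPI3K, and 6 of 9 endothelial markers between IGF1R-caPI3K and IGF1R. Over all 7898 probe sets, 1215 and 1451 reached that level in these comparisons. The part of these cells in the Ptgds signal was not tested.

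Of the cyclooxygenases, Ptgs2, the inducible enzyme, was near the floor. Its probe set 104647_at gave 28.0, 51.3 and 27.7 in IGF1R-caPI3K, 18.5, 23.8 and 60.4 in IGF1R-dnPI3K and 40.2, 44.6 and 29.3 in IGF1R hearts. Of these 9 values 5 lay at or below the floor, so the groups could not be ordered.

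Ptgis, prostacyclin synthase, had its highest mean in IGF1R-caPI3K hearts, the reverse of the order of Ptgds between the PI3K groups. Its probe set 104538_at gave 544, 478 and 391 in IGF1R-caPI3K, 354, 294 and 304 in IGF1R-dnPI3K and 427, 306 and 282 in IGF1R hearts. Every IGF1R-caPI3K array lay above every IGF1R-dnPI3K array, whereas IGF1R replicate 1 lay within the IGF1R-caPI3K range. Means were 471 ± 76.9 in IGF1R-caPI3K, 317 ± 32.3 in IGF1R-dnPI3K and 338 ± 77.6 in IGF1R hearts (SD, n = 3 each). The log2 difference was 0.49 ± 0.19 between IGF1R-caPI3K and IGF1R (limma adjusted p = 0.209), -0.07 ± 0.19 between IGF1R-dnPI3K and IGF1R (95% interval -0.49 to 0.35), and 0.56 ± 0.19 between IGF1R-caPI3K and IGF1R-dnPI3K (95% interval 0.14 to 0.98). None of these passed after adjustment over all probe sets.

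Tbxas1, thromboxane A2 synthase, showed no ordering of the groups. Probe set 92387_at gave 335, 370 and 223 in IGF1R-caPI3K, 360, 294 and 345 in IGF1R-dnPI3K and 336, 321 and 271 in IGF1R hearts, with overlap in all 3 comparisons. Means were 309 ± 77.0 in IGF1R-caPI3K, 333 ± 34.3 in IGF1R-dnPI3K and 309 ± 34.1 in IGF1R hearts (SD, n = 3 each). The log2 difference of Tbxas1 was -0.03 ± 0.20 between IGF1R-caPI3K and IGF1R (95% interval -0.47 to 0.42; limma adjusted p = 0.959) and 0.11 ± 0.20 between IGF1R-dnPI3K and IGF1R (-0.33 to 0.55). The second probe set, 162136_r_at, was below the filter at 36.6 to 63.3 in IGF1R-caPI3K, 30.7 to 61.2 in IGF1R-dnPI3K and 52.0 to 59.8 in IGF1R hearts.

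The receptors were dim. Ptgfr, the receptor for prostaglandin F2 alpha, was highest in IGF1R-dnPI3K hearts on 97769_at: 127, 87.0 and 113 in IGF1R-caPI3K, 173, 164 and 136 in IGF1R-dnPI3K and 113, 136 and 80.9 in IGF1R hearts. IGF1R-dnPI3K arrays lay above all IGF1R-caPI3K arrays and overlapped IGF1R narrowly, by 1 array. The probe set was above the filter on all 3 IGF1R-dnPI3K arrays, 2 IGF1R-caPI3K arrays and 1 IGF1R array. The log2 difference was 0.00 ± 0.28 between IGF1R-caPI3K and IGF1R (limma adjusted p = 0.998), 0.55 ± 0.28 between IGF1R-dnPI3K and IGF1R (95% interval -0.07 to 1.16) and -0.54 ± 0.28 between IGF1R-caPI3K and IGF1R-dnPI3K (-1.16 to 0.07).

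The other Ptgfr probe set, 161713_f_at, did not show that order. It gave 20.8, 59.0 and 42.1 in IGF1R-caPI3K, 47.4, 65.4 and 39.1 in IGF1R-dnPI3K and 63.0, 77.5 and 81.4 in IGF1R hearts, all below the filter. The 2 probe sets of Ptgfr thus disagreed on which group was highest.

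Ptgir, the prostacyclin receptor, had a lower mean signal in both PI3K groups than in IGF1R hearts, though below the level tested. Its probe set 98811_at gave 52.5, 76.9 and 30.6 in IGF1R-caPI3K, 54.1, 66.7 and 77.7 in IGF1R-dnPI3K and 90.5, 94.6 and 98.4 in IGF1R hearts. IGF1R arrays lay above every array of the other groups, but all 9 values were below the filter. When the filter was dropped, the log2 difference between IGF1R-caPI3K and IGF1R was -0.90 ± 0.30 (limma adjusted p = 0.255), and between IGF1R-dnPI3K and IGF1R it was -0.53 ± 0.30.

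Ptger3, a receptor for prostaglandin E2, was at the floor. Of the 18 values of its 2 probe sets, 17 were at or below 32.4. Probe set 96588_at gave 2.5 to 13.4 in IGF1R-caPI3K, 2.3 to 21.7 in IGF1R-dnPI3K and 2.0 to 3.7 in IGF1R hearts, and 96589_at gave 5.4 to 25.0, 8.8 to 33.9 and 5.1 to 9.8 in the same groups. These values carry no order.

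**Figure D2:**
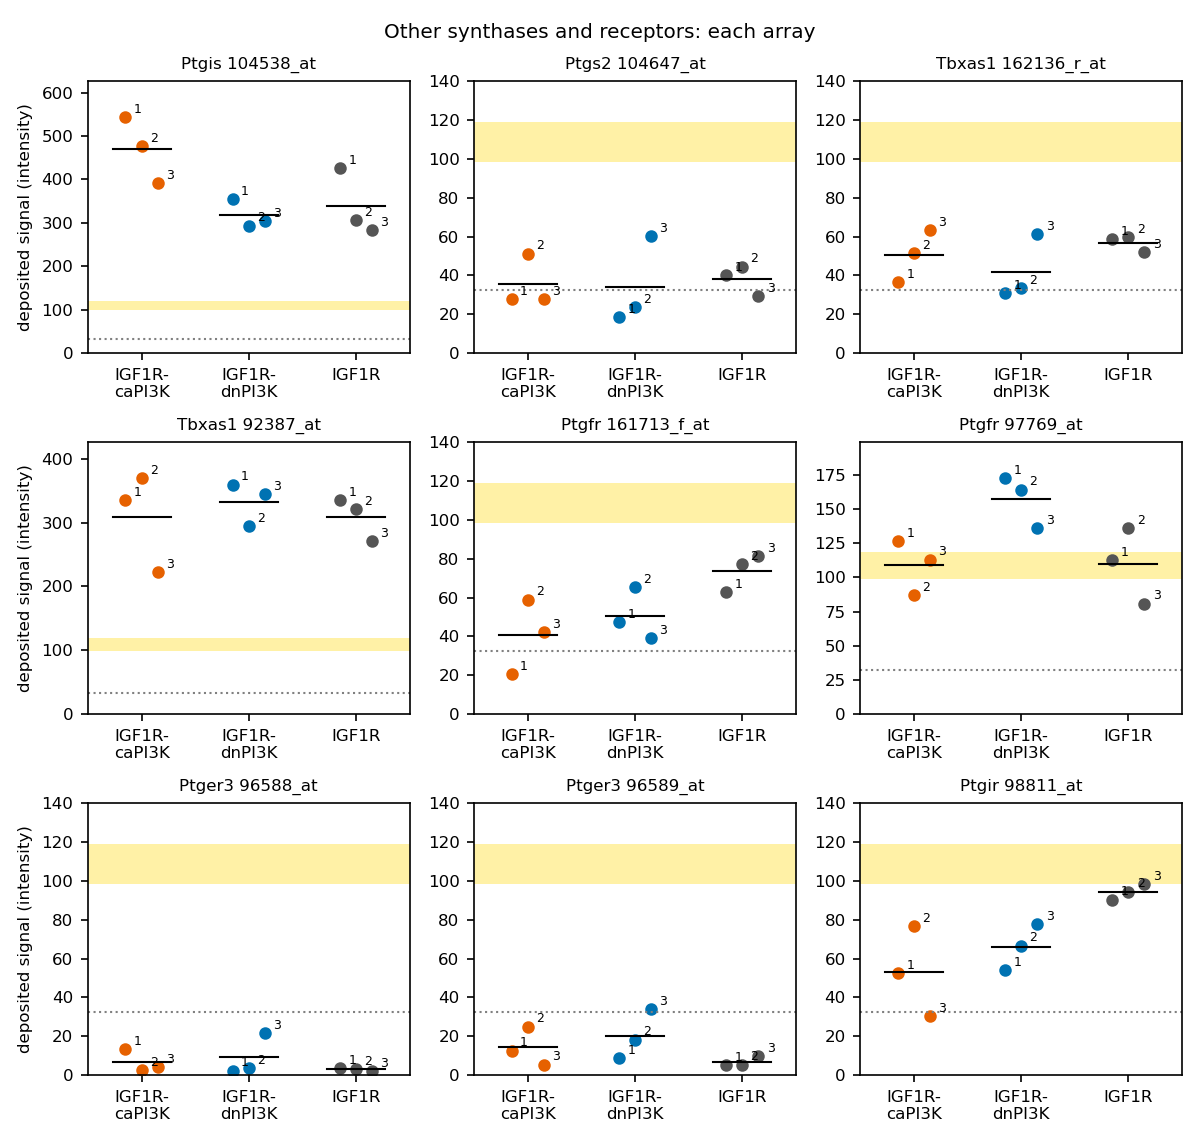
Signal (intensity, linear axis) of the 9 probe sets of Ptgis, Ptgs2, Tbxas1, Ptgfr, Ptger3 and Ptgir on every array, numbered by replicate, with black lines at means of 3. The dotted line is the floor of 32.4 and the yellow band the filter, 98.6 to 119 over the arrays. Ptgis, Tbxas1 and 1 Ptgfr probe set reach above the band, and the rest lie below it.

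Of the 3 probe sets tested outside Ptgds, limma called 0 in each comparison. At an unadjusted p under 0.05 the counts were 1 between IGF1R-caPI3K and IGF1R, 0 between IGF1R-dnPI3K and IGF1R and 1 between IGF1R-caPI3K and IGF1R-dnPI3K. The groups did not overlap for 0, 0 and 2 of the 3 probe sets in the same comparisons, while this held for 32.9%, 34.4% and 19.5% of all probe sets tested.

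**Figure D3:**
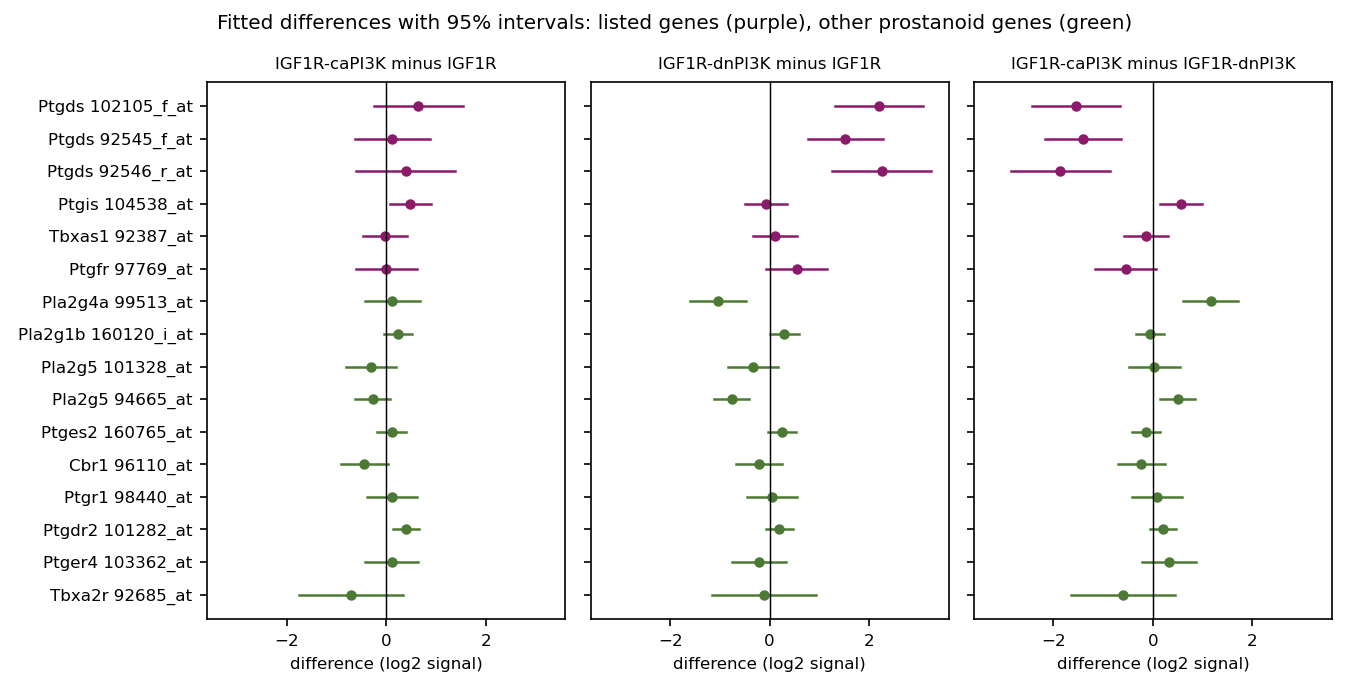
Fitted log2 differences with 95% intervals, in a panel for each comparison, of the 6 tested probe sets of listed genes (purple) and the 10 of other prostanoid genes (green). Points right of 0 are higher in the group named first. Ptgds lies at 1.52 to 2.26 in the panel of IGF1R-dnPI3K minus IGF1R, while Pla2g4a and Pla2g5 94665_at lie below 0. The Ptgds intervals in both panels with IGF1R-dnPI3K are not a test, since Ptgds was chosen on its signal there.

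Other genes of prostanoid supply, synthesis, breakdown and sensing were taken from a list of 23, of which 17 were measured and 9 passed the filter. At the brightest probe set of each gene, limma called 0 in IGF1R-caPI3K against IGF1R (1 at an unadjusted p under 0.05). It called 0 higher and 1 lower in IGF1R-dnPI3K against IGF1R, and 0 in IGF1R-caPI3K against IGF1R-dnPI3K (1 at an unadjusted p under 0.05). In IGF1R-dnPI3K against IGF1R 13.5% of all probe sets tested were called, and 1 of 9 genes is not above that share. The median log2 differences were 0.11, -0.11 and 0.02, beside -0.04, -0.09 and 0.05 over all probe sets tested.

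The gene that fell was Pla2g4a, the cytosolic phospholipase A2 that releases arachidonic acid. Pla2g4a probe set 99513_at gave 252, 237 and 236 in IGF1R-caPI3K, 155, 105 and 78.0 in IGF1R-dnPI3K and 226, 256 and 190 in IGF1R hearts. All IGF1R-dnPI3K arrays lay below all others, and the lowest was replicate 3, where Ptgds was highest. The mean was 112 ± 39.0 in IGF1R-dnPI3K and 224 ± 33.1 in IGF1R hearts (SD, n = 3 each), a log2 difference of -1.04 ± 0.25 (limma adjusted p = 0.0270). Between IGF1R-caPI3K, with a mean of 241 ± 9.06, and IGF1R-dnPI3K the log2 difference was 1.16 ± 0.25 (limma adjusted p = 0.0567). The Pla2g4a call in IGF1R-dnPI3K against IGF1R was lost without any 1 of the IGF1R replicates (adjusted p 0.0668 to 0.0862), without IGF1R-dnPI3K replicate 2 (0.0518) or 3 (0.0552), with no filter (0.0747), with only the 2 groups in the fit (0.0781), and with a block for the series of mouse numbers, where the log2 difference was -0.44 (limma adjusted p = 0.648).

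Pla2g5, a secreted phospholipase A2, differed by probe set. On 94665_at its signal was 307, 272 and 274 in IGF1R-caPI3K, 198, 212 and 194 in IGF1R-dnPI3K and 395, 291 and 348 in IGF1R hearts, and the IGF1R-dnPI3K arrays were the lowest. The log2 difference between IGF1R-dnPI3K and IGF1R was -0.76 ± 0.16 (limma adjusted p = 0.0181). This Pla2g5 call was lost without IGF1R replicate 1 (adjusted p 0.0609) or 3 (0.0679), with only the 2 groups in the fit (0.0557), and with a block for the series of mouse numbers, where the log2 difference was -0.86 (limma adjusted p = 0.308). On the brighter Pla2g5 probe set, 101328_at, it was -0.33 ± 0.23 (limma adjusted p = 0.348), and the groups overlapped.

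Hpgd, the dehydrogenase that starts the breakdown of prostaglandins E2 and F2 alpha, reached the filter on too few arrays to be tested. Its signal on 93351_at was 56.9, 49.1 and 72.5 in IGF1R-caPI3K, 63.7, 46.7 and 13.8 in IGF1R-dnPI3K and 104, 116 and 152 in IGF1R hearts. As for Ptgir, IGF1R arrays lay above every array of the other groups. Without the filter the log2 difference of Hpgd was -1.06 ± 0.28 between IGF1R-caPI3K and IGF1R (limma adjusted p = 0.171) and -1.42 ± 0.28 between IGF1R-dnPI3K and IGF1R (limma adjusted p = 0.0508), so neither passed.

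**Figure D4:**
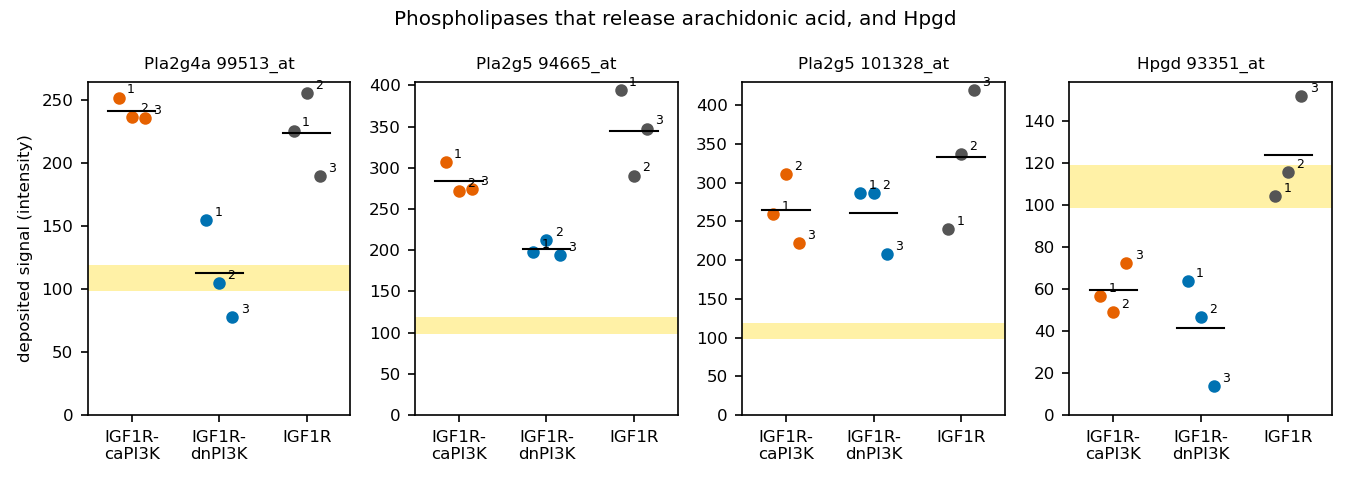
Signal (intensity, linear axis) on every array of Pla2g4a, both probe sets of Pla2g5, and Hpgd, numbered by replicate, with black lines at means of 3 and the filter range in yellow. Pla2g4a and Pla2g5 94665_at are lowest on the IGF1R-dnPI3K arrays, and Hpgd is highest on the IGF1R arrays.

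Of the receptors for prostaglandin D2, the product of Ptgds, Ptgdr was at or below the floor on all 9 arrays. Ptgdr2, the other, was measured at 568 ± 32.3 in IGF1R-caPI3K, 495 ± 23.9 in IGF1R-dnPI3K and 432 ± 26.9 in IGF1R hearts (SD, n = 3 each). Its arrays did not overlap between any groups, yet the log2 differences did not pass: 0.40 ± 0.12 between IGF1R-caPI3K and IGF1R (limma adjusted p = 0.129) and 0.20 ± 0.12 between IGF1R-dnPI3K and IGF1R (limma adjusted p = 0.281). The prostaglandin E synthase Ptges2 had 917 ± 91.7 in IGF1R-caPI3K, 1009 ± 117 in IGF1R-dnPI3K and 849 ± 53.2 in IGF1R hearts and was not called. Tbxa2r, the thromboxane receptor, had 80.8 ± 31.3 in IGF1R-caPI3K, 124 ± 52.5 in IGF1R-dnPI3K and 141 ± 79.9 in IGF1R hearts, with wide overlap.

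Neighbouring gene groups gave 0 calls by limma in each comparison. Of 16 enzymes of other arachidonic acid routes, 7 were tested, and 3, 1 and 1 had an unadjusted p under 0.05 in IGF1R-caPI3K against IGF1R, IGF1R-dnPI3K against IGF1R and IGF1R-caPI3K against IGF1R-dnPI3K. Of 13 lipocalins other than Ptgds, 3 were tested, and 0 had an unadjusted p under 0.05 in each. Apod, a lipocalin that carries lipids, had signals of 293, 279 and 311 in IGF1R-caPI3K, 171, 356 and 413 in IGF1R-dnPI3K and 317, 303 and 235 in IGF1R hearts, with overlap.

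Genes whose log2 signal followed that of Ptgds 102105_f_at over the 9 arrays were ranked by Pearson correlation among 7117 probe sets. This is a description of patterns that share arrays and RNA, and 100 probe sets reached over 0.9 and 186 under -0.9. The 5 most alike were Slc4a3 (0.991), a chloride-bicarbonate exchanger of heart and brain, the kinase Snrk (0.990), the purine synthesis enzyme Gart (0.987), the co-chaperone Sgta (0.983) and Pnpla2 (0.981), the lipase that starts the breakdown of stored fat. Without IGF1R-dnPI3K replicates 2 and 3, the arrays farthest from the median of Ptgds, the correlations were 0.946, 0.990, 0.929, 0.897 and 0.880 in that order. The genes were picked over all 9 arrays, the remaining ones included, so these values are no separate check of the likeness.

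Pnpla2 gave 5681, 5324 and 5741 in IGF1R-caPI3K, 5606, 10064 and 12397 in IGF1R-dnPI3K and 4626, 4038 and 4324 in IGF1R hearts. IGF1R-dnPI3K replicate 1 lay within the IGF1R-caPI3K range and replicates 2 and 3 far above it, where for Ptgds replicate 1 was just above that range. Slc4a3 gave 4761, 4356 and 4347 in IGF1R-caPI3K, 4511, 6435 and 7677 in IGF1R-dnPI3K and 3982, 3356 and 3690 in IGF1R hearts. The IGF1R-dnPI3K mean was 2.16 times the IGF1R mean for Pnpla2 and 1.69 times it for Slc4a3.

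The 3 most opposite were Ppp1r3c (-0.982), which brings protein phosphatase 1 to glycogen, Cacybp (-0.980), the calcyclin-binding protein, and the kinase Map3k1 (-0.978). Map3k1 was dim, at 130, 57.0 and 21.9 in IGF1R-dnPI3K replicates 1, 2 and 3. The last was raised to the floor of 32.4, and 1 of these arrays was above the filter. Ppp1r3c gave 889, 1011 and 1162 in IGF1R-caPI3K, 715, 549 and 432 in IGF1R-dnPI3K and 1031, 1412 and 1151 in IGF1R hearts. All IGF1R-dnPI3K arrays lay below all others, again with replicate 1 nearest to them and replicate 3 farthest.

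**Figure D5:**
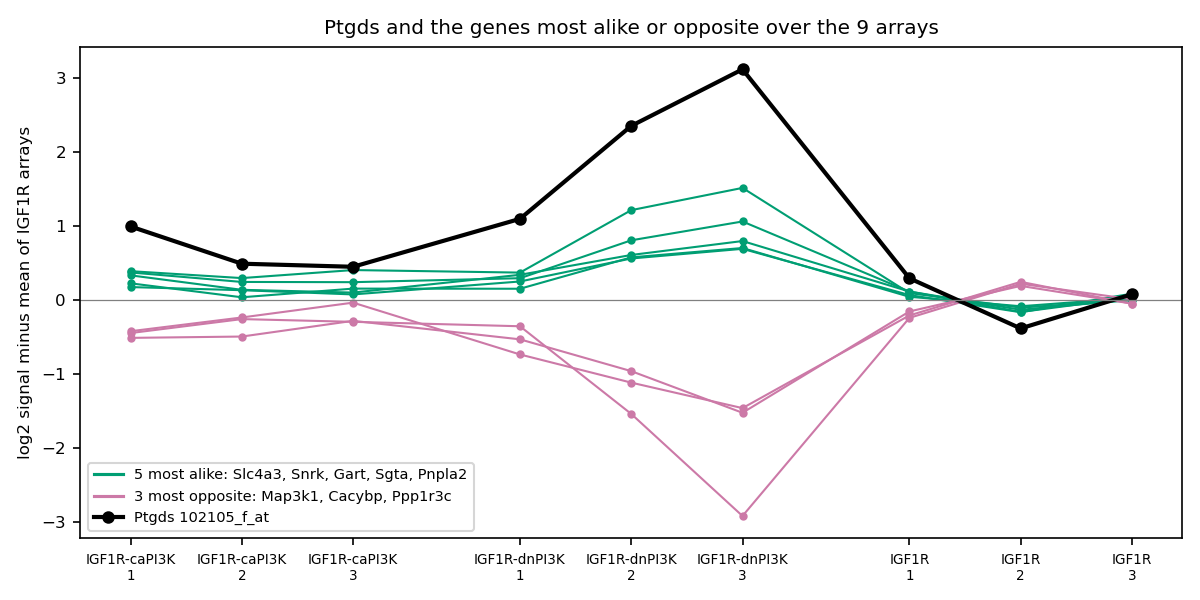
Log2 signal minus the mean of the IGF1R arrays, on each of the 9 arrays, for Ptgds 102105_f_at (black), the 5 genes most like it (green) and the 3 most opposite (pink). The genes were picked for this likeness. Ptgds spans the widest range upward, and the curves part on IGF1R-dnPI3K replicates 2 and 3.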

How the data were processed

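The values deposited by the authors are intensities on a linear scale, 1 for each probe set on each array, already scaled to a common trimmed mean, as the values themselves show. The sources used here name neither the algorithm nor detection calls. Gene symbols came from the platform annotation: 10833 probe sets had 1 symbol, 396 several and 1193 none, and 10817 were matched to RefSeq's gene table by identifier. The 66 control probe sets were left out. The 7898 probe sets that passed the filter were fitted on all 9 arrays with limma 3.58.1 and statmod 1.5.0 under R 4.3.3, with variances that follow the mean signal. Signals are given as mean ± SD of deposited values, and differences as log2 estimate ± SE. The p-values weigh each difference against the spread between these samples, which limma estimates partly from all probe sets. The number of arrays limits their precision. Replicates were numbered in deposit order.

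Every probe set of the listed genes is named. Of other prostanoid genes, measured ones may be named. Of the remaining lists, genes that passed in a comparison may be named. Apod, Myl7, Myl4, Fabp4, Msln, Krt19, Upk3b, Cdh1, C1qc and the summed lists were added after their values were seen. The 5 most alike and 3 most opposite patterns are named. The genes, lists and tests were chosen with earlier results of these data known. The model was tested on simulated data. Alternatives were other scalings, floors and filters, no variance trend, array weights, only 2 groups, a block for mouse number series, and each replicate left out.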

Additional observations from a re-analysis of the deposited data

How the results depend on the processing

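For Ptgds 102105_f_at, the Ptgds probe set with the highest mean log2 signal, and for 92546_r_at the direction stayed the same under all 19 alternatives in every comparison. For 92545_f_at it did so in both comparisons with IGF1R-dnPI3K, but between IGF1R-caPI3K and IGF1R the log2 difference of 0.12 became -0.08 without IGF1R-caPI3K replicate 1 and -0.01 without IGF1R replicate 2. For 102105_f_at the log2 difference was 1.73 to 2.74 between IGF1R-dnPI3K and IGF1R, -2.09 to -1.08 between IGF1R-caPI3K and IGF1R-dnPI3K, and 0.46 to 0.80 between IGF1R-caPI3K and IGF1R, with replicates left out in turn. With a block for mouse number series it was 0.89 between IGF1R-dnPI3K and IGF1R and -0.24 between IGF1R-caPI3K and IGF1R-dnPI3K, where that fit rests on 1 IGF1R-dnPI3K mouse. The 3 Ptgds probe sets in both comparisons with IGF1R-dnPI3K were judged by the size of the difference and not by a test. Of 114 alternatives, 108 stayed within the spread between replicates, and the 6 that moved were all fits with that block. Part of this count was fixed in advance. Other filters, the higher floor, no variance trend, only 2 groups, or a mouse left out of the group not compared cannot change a Ptgds difference. Its direction could not change under these either. For Ptgds in IGF1R-caPI3K against IGF1R and for the probe sets of Ptgis, Tbxas1, Ptgfr, Pla2g4a and Pla2g5, judged by their call, 320 of 336 kept their side of the threshold. Of the rest, 12 lost a call (Pla2g4a and Pla2g5 in IGF1R-dnPI3K against IGF1R) and 4 gained one (Pla2g4a in IGF1R-caPI3K against IGF1R-dnPI3K). The stricter filter removed Ptgfr and Pla2g4a.

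The number of probe sets called depended on the processing, and the cause was not tested. Between IGF1R-caPI3K and IGF1R it was 17, against 78 with quantile normalization, 3 with a common median, 67 with a floor at the 40th percentile, 0 with no filter (1766 at an unadjusted p under 0.05), 59 with a stricter filter, 7 with no variance trend, 777 with array weights, 699 with only the 2 groups and 1 with the series as a block, and it was 0 to 550 with replicates left out, the highest without IGF1R-dnPI3K replicate 3. Between IGF1R-dnPI3K and IGF1R it was 1066, against 387 with no filter, 657 with no variance trend, 132 with only the 2 groups and 5 with the block, and 73 to 1861 with replicates left out, the lowest without IGF1R replicate 3. There 450 were higher and 616 lower, and with a common median 832 were higher and 333 lower, as the median log2 difference moved to 0.07 from -0.09. Between IGF1R-caPI3K and IGF1R-dnPI3K it was 98, against 36 with no filter, 45 with no variance trend, 348 with array weights, 13 with only the 2 groups and 8 with the block, and 10 to 539 with replicates left out. No paired analysis was possible because the labels give the groups no shared replicate numbers, and matching of mice was tried only through the block for mouse number series, given above. Signal near the floor limits what can be said of Ptgs2, Ptger3 and Ptgir.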
